A study of Mus musculus with 6 samples.

Results

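The genes described here encode the proteins of the cytosolic ribosome. They were chosen by symbol alone: Rpl or Rps followed by a number and at most 1 letter (a, x, l, y or k), plus the stalk genes Rplp0, Rplp1 and Rplp2. The rule found 80 of the 32531 genes in the files, 49 of the large subunit (Rpl) and 31 of the small subunit (Rps). All 80 were found by symbol in the GENCODE M21 annotation of the mm10 build. Counts of 77 of them (46 large, 31 small) were high enough to be tested. Ribosomal proteins whose symbols do not follow this form, such as Rpsa, Rps3a1 and Fau, are given separately.

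The libraries came, per the labels, from the thalamus of adult mice that received no treatment. The deposited files are named for the parafascicular nucleus, a thalamic nucleus, so how much of the thalamus they cover is uncertain. All mice carried the Cbln1-EGFP/Rpl10a transgene of line NIDA030, in which the ribosomal protein Rpl10a is fused to green fluorescent protein and, as the line's name says, Cbln1 sequences drive it. The study used translating ribosome affinity purification (TRAP), in which tagged ribosomes are pulled from the tissue homogenate with antibodies against the fluorescent protein. It compared 3 immunopurified (IP) libraries with 3 Input libraries, and ribosome-bound RNA is the labelled molecule of either group. Values below follow the order of replicates 1, 2 and 3 in each group. No mice without the transgene were included, and the labels give neither sex nor the number of animals behind a library. P-values therefore measure only the spread between these libraries. The comparison asks which RNAs were more or less abundant on the tagged ribosomes than in the Input.

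Ribosomal proteins assemble with ribosomal RNA in the nucleolus, and most are present as a single copy per ribosome. Their mRNAs are short and abundant, and most open with a terminal oligopyrimidine (TOP) tract, a run of C and T at the transcription start through which the kinase mTOR and the protein Larp1 control their translation. Several have a paralogue made in few tissues, and the mouse genome holds many processed pseudogenes of almost every member. Reads that fit several places cannot be given to a single gene.

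Runs of C and T near the annotated start are shown for some of the genes called below. The RefSeq sequence (GRCm38.p6, the mm10 build) is printed from 15 bases before that start onwards, 30 bases on the coding strand, 5′ to 3′. Capitals mark bases within runs of at least 8 C or T, which may go on outside the stretch shown. Rpl34 is shown at 1 of its 2 annotated starts. The first 6 genes hold such a run and the last 3 do not. Other called genes of both kinds are not shown. In Rpl4 the capitals lie wholly before the annotated start, and in Rpl34 most of them do.
Rpl34, chr3:130730323-130730352, minus strand: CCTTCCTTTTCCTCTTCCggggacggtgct
Rpl35, chr2:39005117-39005146, minus strand: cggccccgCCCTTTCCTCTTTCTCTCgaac
Rpl38, chr11:114668565-114668594, plus strand: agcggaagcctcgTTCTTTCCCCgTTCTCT
Rplp2, chr7:141447636-141447665, plus strand: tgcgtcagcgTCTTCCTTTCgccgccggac
Rps26, chr10:128626492-128626521, minus strand: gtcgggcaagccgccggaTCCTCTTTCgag
Rpl4, chr9:64173372-64173401, plus strand: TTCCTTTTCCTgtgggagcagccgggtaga
Rpl41, chr10:128549154-128549183, minus strand: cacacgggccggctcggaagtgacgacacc
Rpl9, chr5:65391417-65391446, minus strand: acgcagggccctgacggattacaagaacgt
Rps4x, chrX:102189377-102189406, minus strand: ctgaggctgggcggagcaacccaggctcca
Annotated starts can lie some bases from the start that cells use, so a window from 40 bases before to 20 bases from the start was searched on the coding strand. Of the 80 members, 59 had a promoter entry. A run of at least 8 C or T was present in 35 of them (59.3%), against 27.2% of 27025 genes. The same run on the other strand, read as A or G, was found in 17.0% of the members and 28.3% of all genes. A run is a description of the letters only.

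Assigned counts ran from 23929070 to 57385828 per library, and no pair of replicates agreed within sampling noise. The ribosomal RNA precursor Rn45s took 9.38 to 14.5% of assigned counts in IP, highest in IP replicate 1, and 5.21 to 5.40% in Input. Reads set aside as not uniquely aligned came to 43.2 to 49.7% of all lines in IP and 32.7 to 34.02% in Input, so the groups did not overlap in either value. Cbln1 had 68.9, 83.2 and 87.2 CPM (counts relative to library size) in Input against 1360, 1428 and 1496 in IP. CPM here are scaled by TMM, the trimmed mean of M-values. All 10 of 10 astrocyte markers and all 10 of 10 oligodendrocyte markers were lower in IP, with summed levels of 648 to 710 against 1932 to 2061 CPM and of 350 to 434 against 3807 to 4416 CPM. All 6 of 6 oligodendrocyte precursor markers were also lower (17.6 to 28.3 against 242 to 245 CPM), as were 6 of 8 microglial markers (4.40 to 7.74 against 40.8 to 49.8 CPM). The same held for 5 of 6 endothelial markers (0.370 to 1.92 against 8.47 to 12.1 CPM, with Cldn5 and Cdh5 at 0 counts in every IP library) and 5 of 6 inhibitory neuron markers (114 to 125 against 573 to 823 CPM). Ependymal and choroid plexus markers were lower for 3 of 6, and their Input sum was 30.7 CPM in replicate 1 but 531 and 594 CPM in the others. All 10 of 10 pan-neuronal markers were higher (24579 to 29098 against 12622 to 13640 CPM), and thalamic excitatory neuron markers split into 4 higher and 2 lower of 8 (4583 to 5202 against 3406 to 3947 CPM). These markers, Rn45s and the not uniquely aligned reads differed between the same groups as the ribosomal protein genes below, and their part in those results was not tested. In these bulk samples a change in the number of cells of a type and a change in RNA per cell cannot be told apart.

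Most ribosomal protein genes did not pass the test for a difference between IP and Input. Of the 77 tested, 15 were higher in IP, 3 were lower and 59 did not pass the test (edgeR's quasi-likelihood F-test, Benjamini-Hochberg adjusted p under 0.05 over all 16898 genes tested). Higher calls made up 19.5% of the members against 23.3% of all genes, and lower calls 3.90% against 24.3%. In either direction 47.5% of all genes were called. The share called higher was therefore near that of all genes, while few members were called lower. That comparison is not matched for length. Of protein-coding genes with at most 1000 exon bases, 45.2% were higher and 13.4% lower, and of the 40 members there 11 and 1. With 1000 to 2000 exon bases it was 35.3 and 14.4%, and of the 29 members there 4 and 1. The median log2 fold change of the members was 0.23, and that of all tested genes was -0.07. IP replicate 1 was the highest IP library for 36 of the 77 members and for 10 of the 15 higher ones, against 36.4% of all tested genes, and without it all 18 calls were kept. The members' median lay 0.30 above that of all genes. Scaling shifts all genes together and leaves this gap as it is, but the filter on low counts moved it, to 0.14 with a minimum count of 100 (members' median 0.14) and 0.59 with no filter (members' median 0.25). The sign of the members' own median depended on the scaling. It was 0.05 with upper-quartile scaling and -0.0036 with library totals, where the medians of all genes were -0.25 and -0.31. The split of calls followed: 11 higher and 5 lower with upper-quartile scaling, and 10 higher and 7 lower with library totals. Over all genes the split was 3930 higher and 4100 lower with TMM, 2887 and 4981 with upper-quartile scaling and 2464 and 5236 with library totals.

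Summed over the 80 members, ribosomal protein genes took 0.320, 0.296 and 0.296% of assigned counts in Input against 0.286, 0.298 and 0.283% in IP. The groups overlapped, and the ratio of their means was 0.950. With Rn45s taken out of the totals the ratio was 1.013. On the TMM scale, the sums were 2995, 2720 and 2686 CPM in Input against 3277, 3118 and 3008 CPM in IP. On that scale every IP library lay above every Input library, by a ratio of means of 1.12. Thus the direction of this sum depends on whether and how the libraries are scaled.

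**Figure D1:**
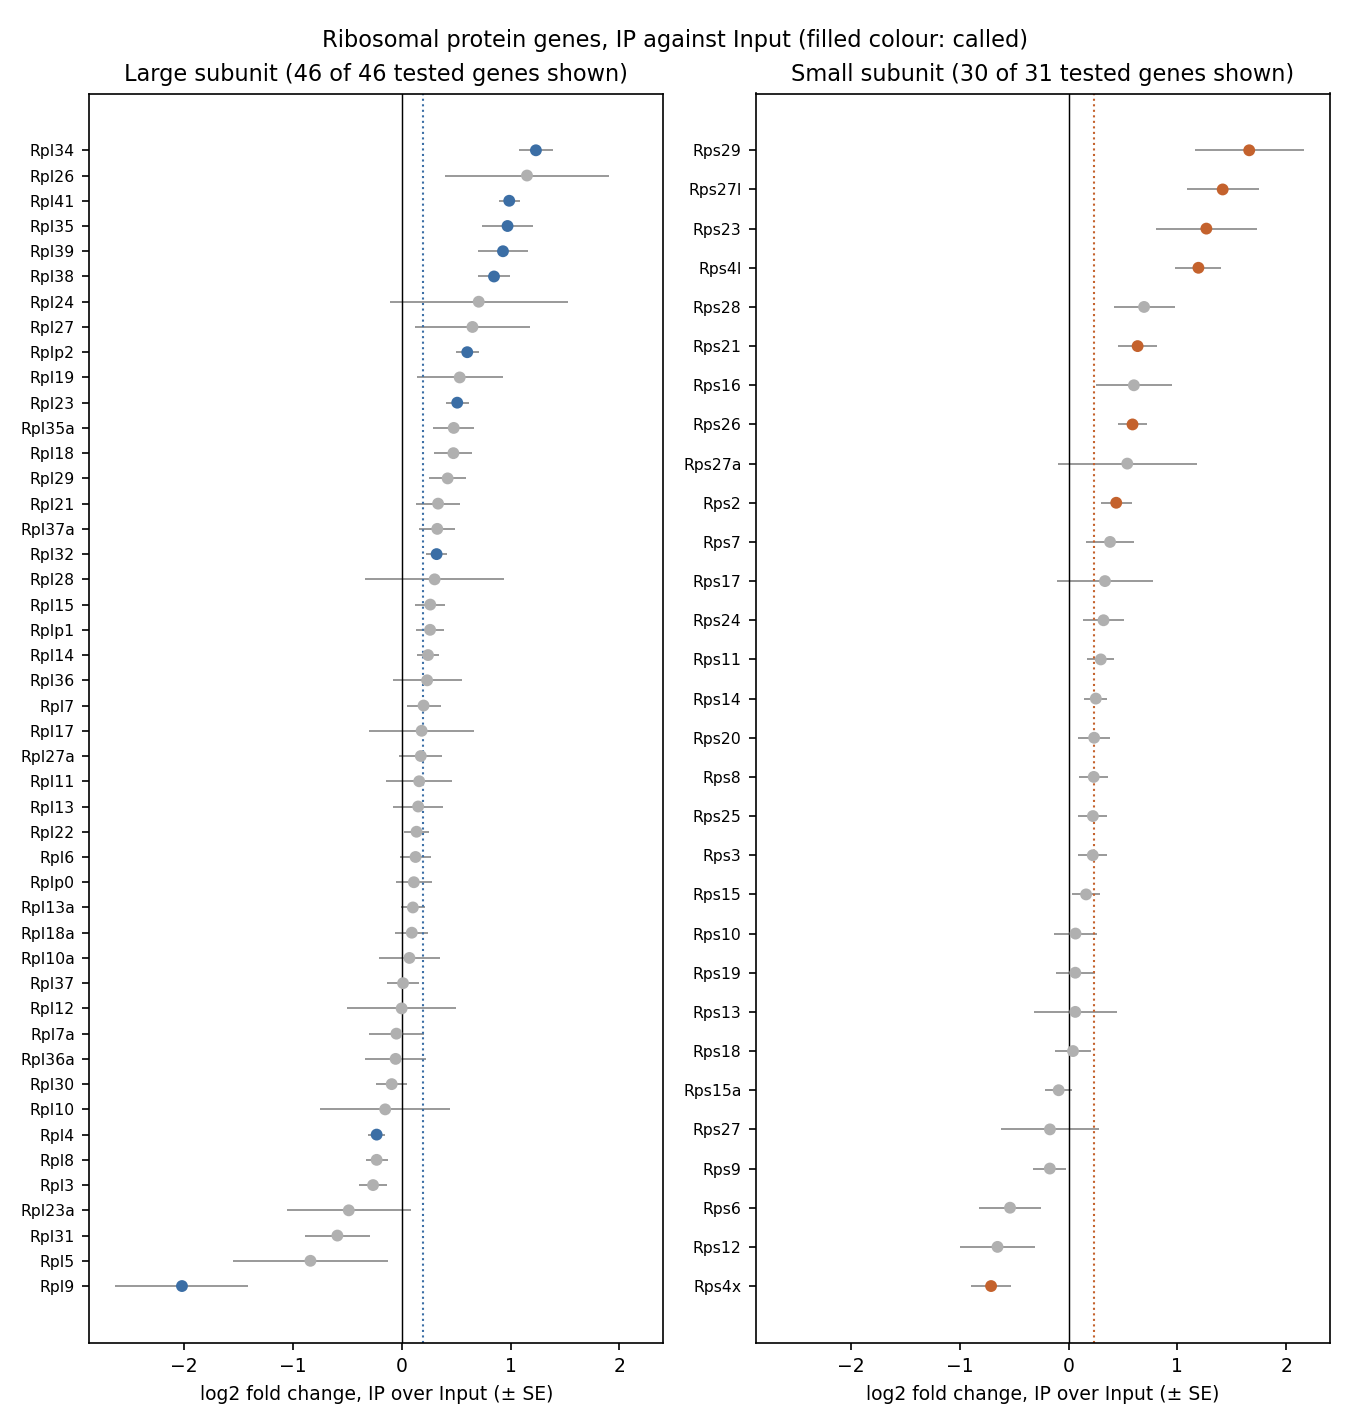
Log2 fold change of IP over Input (horizontal axis) with its standard error for the large and small subunit genes tested, ordered by size, with 1 uncalled small subunit gene left out. Coloured points passed the test and grey points did not. Dotted lines show the medians, 0.19 for the large and 0.24 for the small subunit, which turn to -0.042 and -0.0013 when libraries are scaled by their totals alone. Most points lie between zero and the highest called genes, with few at the lower end.

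The counts for the large and the small subunit were near each other. Of 46 large subunit genes, 8 were higher and 2 lower (17.4 and 4.35%), with a median log2 fold change of 0.19. Of 31 small subunit genes, 7 were higher and 1 lower (22.6 and 3.23%), with a median of 0.24. Over all genes tested, 23.3% were higher and 24.3% lower. With library totals as scaling, these medians were -0.042 and -0.0013. All 3 IP libraries lay above all 3 Input libraries for 29 members, 16 large and 13 small, which is 37.7% of those tested against 27.9% of all genes. The opposite held for 8 members, 5 large and 3 small, or 10.4% against 33.7% of all genes. The summed level per kilobase of exon of the large subunit was 1.22, 1.26 and 1.29 times that of the small subunit in the Input libraries. In the IP libraries this ratio was 1.22, 1.26 and 1.29 as well, so it matched between same-numbered libraries, which also share a lane. Its means were 1.255 ± 0.0323 in Input and 1.256 ± 0.0325 in IP (SD, n = 3 each). They differed by less than the spread between libraries, which lay mostly between replicate numbers. A ratio within a library does not depend on scaling.

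Rpl10a, the protein of the ribosome's L1 stalk that carries the tag in this line, is the member closest to the experiment itself. It lies on chromosome 17 at 28328471 to 28331033 (mm10). It had 4.86, 4.72 and 5.07 CPM in Input against 5.26, 6.01 and 4.09 CPM in IP. The groups overlapped, with IP replicate 3 below every Input library and the other two above. Its log2 fold change of 0.07 became -0.11 with upper-quartile scaling and -0.17 with library totals. Behind these values stand only 124 to 276 counts per library. Every 50-base window of its coding sequence also occurs in transcripts of other genes, all 5 of them annotated as pseudogenes. Over the windows of all its exons the share is 62.4%. Whether the fused mRNA of the transgene was counted at this gene is not given in the sources used here.

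Of the 8 higher large subunit genes, Rpl34 had the highest fold change. Rpl34 (chromosome 3, 130726831 to 130730398) had 21.6, 20.3 and 16.8 CPM in Input against 54.4, 40.8 and 42.7 CPM in IP. Every IP library was above every Input library, and IP replicate 1 was the highest. Its log2 fold change of 1.23 (SE 0.16, adjusted p = 0.000267, edgeR) corresponds to a 2.35-fold difference.

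Rpl41 encodes a very short basic peptide, the smallest protein of the ribosome. Its gene on chromosome 10 (128548114 to 128549305) had 65.6, 60.3 and 55.6 CPM in Input against 126, 119 and 114 CPM in IP. The replicates of each group lay close together and the groups were far apart. The log2 fold change was 0.99 (SE 0.10, adjusted p = 5.8e-05, edgeR), the lowest adjusted p of any member. Each of its coding windows of 50 bases is shared with other genes, but over all its exon windows the share is 28.9%.

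Rpl35, Rpl38 and Rpl39 were each higher in IP. Rpl39 lines the exit tunnel through which the new protein leaves the ribosome. Its gene on the X chromosome had 31.5, 29.9 and 25.8 CPM in Input against 79.0, 41.4 and 45.6 CPM in IP. No IP library reached down to the Input values, but IP replicate 1 stood well above the other two, and the log2 fold change was 0.93 (SE 0.23, adjusted p = 0.00871, edgeR). Without IP replicate 1 it was 0.59, still called. Rpl38, whose loss in mice alters the body axis through the translation of Hox mRNAs, had 26.04, 26.4 and 23.1 CPM in Input against 54.2, 40.7 and 41.0 CPM in IP. Again the groups did not overlap and IP replicate 1 was highest (log2 fold change 0.85, SE 0.15, adjusted p = 0.00145).

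Rpl35, also at the exit tunnel, had 7.32, 6.62 and 5.30 CPM in Input against 15.9, 11.0 and 10.8 CPM in IP. The groups did not overlap, and the log2 fold change was 0.97 (SE 0.24, adjusted p = 0.00835, edgeR). This gene needs care: 66.2% of its annotated exon bases lie under exons of Arpc5l and Wdr38 on the opposite strand, and the strand setting of the counting is not given. Wdr38 had at most 11 counts in a library. Arpc5l, a gene of the actin-nucleating machinery, had 70.3, 68.4 and 58.3 CPM in Input against 120, 123 and 138 CPM in IP. Its log2 fold change of 0.95 (SE 0.11) was close to that of Rpl35. Without strand the reads of the 2 genes cannot be told apart where they overlap. The counting set aside reads over several features. Whether reads in this overlap were set aside or counted at either gene is not given in the sources used here.

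Rplp2, an acidic protein of the stalk that recruits translation factors, had 54.1, 47.9 and 47.3 CPM in Input against 74.0, 80.4 and 72.0 CPM in IP. The groups were well separated, and the log2 fold change was 0.60 (SE 0.10, adjusted p = 0.00141, edgeR). Its stalk partners, named after their values were seen, did not pass the test. The log2 fold changes were 0.26 for Rplp1 (SE 0.13, adjusted p = 0.119) and 0.11 for Rplp0 (SE 0.16, adjusted p = 0.605). Below the 6 highest, Rpl23 (0.51) and Rpl32 (0.32) completed the higher large subunit genes, and they too are named after their values were seen. Rpl32 was called by a narrow margin: its adjusted p of 0.0186 became 0.0843 without Input replicate 2 and 0.098 without Input replicate 3. With upper-quartile scaling its log2 fold change was 0.14 (adjusted p = 0.243) and with library totals 0.09 (0.518). Rpl23 was not called with library totals (log2 fold change 0.27, adjusted p = 0.0755).

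**Figure D2:**
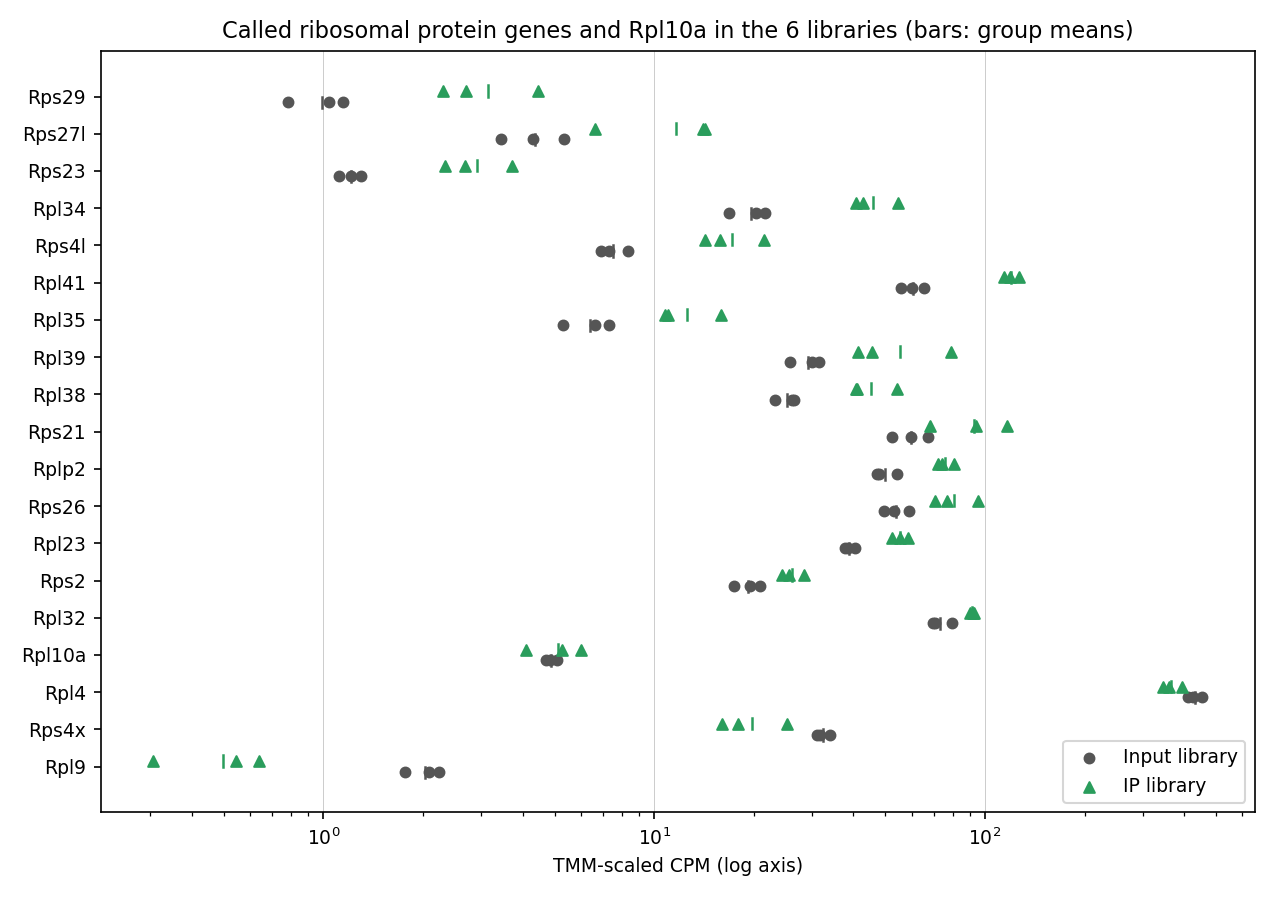
TMM-scaled CPM (horizontal log axis) of the 18 called ribosomal protein genes and Rpl10a in the 6 libraries, with circles for Input, triangles for IP and bars for group means. Triangles lie to the right of the circles for 15 genes, overlap them for Rpl10a and lie to the left for Rpl4, Rps4x and Rpl9.

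Among the small subunit genes, the highest fold changes belonged partly to members with very few counts. Rps29, a zinc-binding protein of the small subunit's head, had 20, 54 and 60 counts in Input against 222, 124 and 98 in IP, or 0.783, 1.04 and 1.15 against 4.44, 2.70 and 2.31 CPM. The groups did not overlap, and the log2 fold change was 1.66 (SE 0.50, adjusted p = 0.0219, edgeR). Leaving out Input replicate 1, 2 or 3 took the adjusted p to 0.0848, 0.0724 and 0.0636.

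Rps23, a protein of the decoding centre, had 31, 58 and 68 counts in Input against 117, 171 and 114 in IP. Its CPM, 1.21, 1.12 and 1.30 in Input against 2.34, 3.73 and 2.68 in IP, did not overlap. The log2 fold change was 1.27 (SE 0.47, adjusted p = 0.0491). The call was lost without Input replicate 1, 2 or 3 (adjusted p = 0.13, 0.151 and 0.131, edgeR) and without IP replicate 2 (0.0946). For Rps29 and Rps23, as for Rpl38 and Rpl41, every coding window of 50 bases occurs in other genes. Over all exon windows, untranslated sequence included, the share was 35.8% for Rps29, 51.7% for Rps23, 27.4% for Rpl38 and 28.9% for Rpl41.

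Rps26 and Rps21 rested on more counts. Rps26 forms part of the channel by which mRNA leaves the ribosome. It had 58.8, 53.1 and 49.5 CPM in Input against 95.2, 70.5 and 76.8 CPM in IP. The groups did not overlap (log2 fold change 0.59, SE 0.13, adjusted p = 0.00547, edgeR). Rps21 had 67.4, 59.7 and 52.4 CPM in Input against 116, 68.3 and 93.8 CPM in IP. Here the lowest IP library lay just above the highest Input library. The log2 fold change was 0.64 (SE 0.18, adjusted p = 0.0177), and the call was lost without Input replicate 2 (adjusted p = 0.0545) or 3 (0.0709). Rps2, also higher and named after its values were seen, had a log2 fold change of 0.44. Its call was lost without Input replicate 1 (adjusted p = 0.0543), 2 (0.0917) or 3 (0.136). With upper-quartile scaling and library totals the log2 fold change of Rps2 was 0.26 and 0.20 (adjusted p = 0.169 and 0.269), and that of Rps21 was 0.46 and 0.39 (0.0717 and 0.0801). Rps27l and Rps4l, which were higher too, are described with their pairs.

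Only 3 members were lower in IP, and 1 of them, Rps4x, was called under every alternative run. Rpl4, whose long loop reaches into the exit tunnel, was the member with the most counts. It had 454, 411 and 424 CPM in Input against 394, 345 and 360 CPM in IP. The lowest Input library lay only just above the highest IP library, and the log2 fold change was -0.23 (SE 0.08, adjusted p = 0.0407, edgeR). The call was lost when Input replicate 1 (adjusted p = 0.161), 2 (0.0814) or 3 (0.124), or IP replicate 2 (0.0909) or 3 (0.121), was left out. Rpl4 held 15.4% of all member counts in Input and 11.7% in IP, and without it the summed share of the members was 0.991 times the Input value.

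Rpl9 showed the lowest fold change of any member, on very few counts. It had 45, 116 and 109 counts in Input against 32, 25 and 13 in IP, or 1.76, 2.23 and 2.08 against 0.640, 0.545 and 0.306 CPM. The groups did not overlap, and the log2 fold change was -2.02 (SE 0.61, adjusted p = 0.0222, edgeR). Without Input replicate 1, 2 or 3 the adjusted p was 0.0678, 0.106 and 0.0998. All of its coding windows are shared with other genes, but over all its exon windows the share is 21.9%.

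Rps4x encodes a small subunit protein from the X chromosome (102184941 to 102189394). It had 31.8, 31.1 and 33.9 CPM in Input against 16.0, 25.2 and 17.9 CPM in IP. Every IP library was below every Input library, with IP replicate 2 the nearest. The log2 fold change was -0.71 (SE 0.18, adjusted p = 0.00985, edgeR), a 1.64-fold lower level. Leaving out any library kept the adjusted p between 0.000893 and 0.0457. Of its 50-base windows, 90.04% in the coding sequence and 72.25% over all exons are shared with other genes. These are 11 genes, 10 of them annotated as pseudogenes. The part of reads not uniquely aligned in this call was not tested.

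Of the 59 members that did not pass the test, 40 had overlapping groups, 14 had every IP library above Input and 5 had every IP library below. Their log2 fold changes ran from -0.84 to 1.15 and their standard errors reached 0.82. The highest of these fold changes, 1.15, was near the 1.23 of Rpl34 but did not pass the test. Rps23, at 1.27 with 31 to 171 counts per library, did pass it. How far low counts limited the calls was not tested. The highest members per kilobase, averaged over the 6 libraries, were Rpl4, Rpl8 and Rpl41 in the large subunit. Rps15 and Rps21 were among the 3 highest in the small subunit. Rpl8, a protein near the peptidyl transferase centre, had 172, 147 and 156 CPM in Input against 125, 148 and 131 CPM in IP. Its highest IP library overlapped the lowest Input library (log2 fold change -0.23, SE 0.10, adjusted p = 0.0853, edgeR). Without IP replicate 2 it was called lower (adjusted p = 0.0292), as it was with DESeq2 (0.0244), library totals (0.00966), the stricter filter (0.0224) and upper-quartile scaling (0.00848). Rps15, which reaches toward the decoding centre, had 147, 119 and 121 CPM in Input against 156, 156 and 120 CPM in IP, and the groups overlapped.

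Several ribosomal protein genes come with a paralogue, a related gene for the same position in the ribosome or one close to it. For 8 such pairs the counts of paralogue and main copy were compared within each library, where scaling cancels out. To show how far reads can tell these copies apart, the first 60 coding bases of 3 pairs are given from GENCODE M21 transcripts (mm10, 5′ to 3′, for Rps4l from the longest open reading frame), with capitals at positions where the copies differ.
Rps4x: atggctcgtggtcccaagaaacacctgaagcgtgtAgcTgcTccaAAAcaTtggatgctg
Rps4l: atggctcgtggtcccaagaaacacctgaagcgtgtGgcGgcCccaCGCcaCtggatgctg
Rps27: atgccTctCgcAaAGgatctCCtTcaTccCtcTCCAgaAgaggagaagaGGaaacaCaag
Rps27l: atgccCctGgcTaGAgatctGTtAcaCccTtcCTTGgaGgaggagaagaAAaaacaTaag
Rpl39: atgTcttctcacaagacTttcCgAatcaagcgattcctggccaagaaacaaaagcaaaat
Rpl39l: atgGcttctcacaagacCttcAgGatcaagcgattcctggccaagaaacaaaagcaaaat
Over these stretches Rps4x and Rps4l differ at 7 bases, Rps27 and Rps27l at 18 and Rpl39 and Rpl39l at 4. Over the whole coding sequence, the aligned bases were 80.5% identical for Rps4x and Rps4l, 77.2% for Rps27 and Rps27l and 85.3% for Rpl39 and Rpl39l. The longest identical run of these 3 pairs was 38 bases, in Rpl39 and Rpl39l, shorter than the 50-base windows used to describe sharing. The other 5 pairs ranged from 66.8% (Rpl7 and Rpl7l1) to 87.9% identity (Rpl36a and Rpl36al).

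The Rps4 pair moved in opposite directions. Rps4l, a copy on chromosome 6 (148354656 to 148355598) that GENCODE annotates as a transcribed processed pseudogene, had 7.28, 6.91 and 8.32 CPM in Input against 21.5, 15.8 and 14.3 CPM in IP. The groups were far apart, and the log2 fold change was 1.19 (SE 0.21, adjusted p = 0.00161, edgeR), whereas Rps4x was lower. Rps4l counts were 22.9, 22.2 and 24.5% of those of Rps4x in Input. In IP they came to 134, 62.6 and 79.7%, so that the counts of Rps4l passed those of Rps4x in IP replicate 1. The log2 ratio of the pair was 1.91 higher in IP, the widest difference among the 5 pairs with enough counts to compare. Of the 50-base coding windows, 90.04% are shared with other genes in Rps4x and 17.97% in Rps4l. The part of this in the ratio was not tested.

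In the Rps27 pair, the paralogue was called higher and the main copy was not called. Rps27 and Rps27l encode closely similar zinc-finger proteins, and Rps27l is known as a target of p53. Rps27l had 4.31, 5.35 and 3.44 CPM in Input against 14.1, 6.65 and 14.3 CPM in IP. The lowest IP library, replicate 2, lay closer to the Input libraries than to the other two. The log2 fold change of Rps27l was 1.42 (SE 0.33, adjusted p = 0.00665, edgeR), a 2.67-fold difference. Rps27 had 2.54, 1.83 and 2.16 CPM in Input against 1.68, 2.09 and 2.02 CPM in IP, and its groups overlapped. Rps27l counts were 169, 293 and 159% of those of Rps27 in Input against 838, 318 and 706% in IP, a log2 ratio 1.52 higher in IP. Here too the copies differ in sharing, with 100% of coding windows found in other genes for Rps27 and 49.03% for Rps27l.

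**Figure D3:**
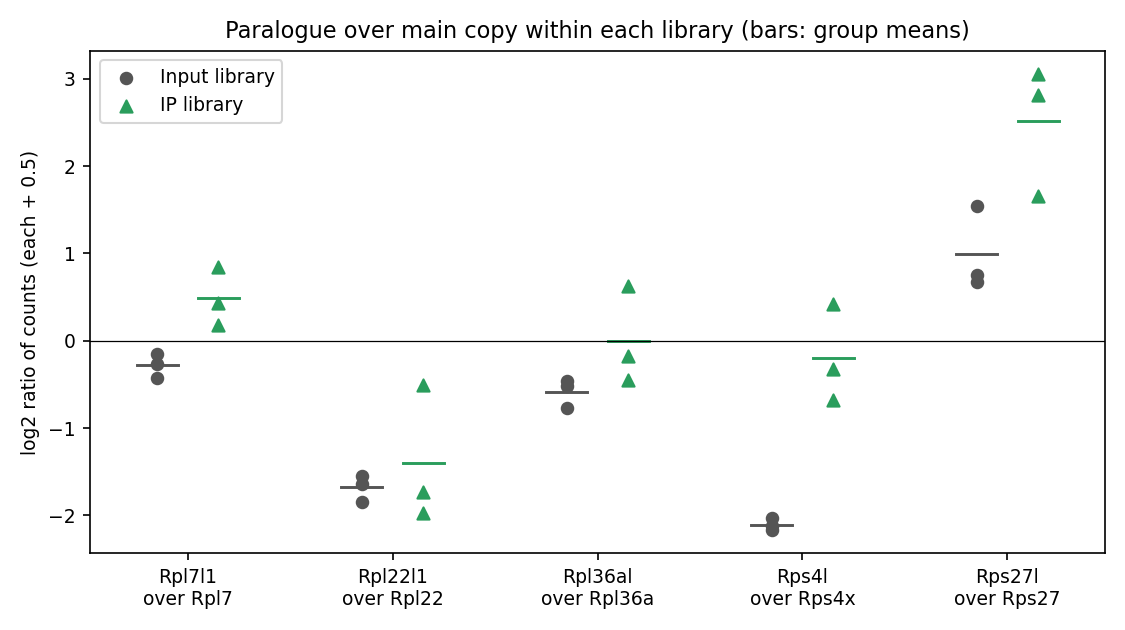
Log2 ratio of the counts of paralogue over main copy (0.5 added to each) in every library, with circles for Input, triangles for IP and bars for group means. IP lies above Input without overlap for 4 of the 5 pairs, most for Rps4l over Rps4x and only just for Rpl36al over Rpl36a. For Rpl22l1 over Rpl22 the groups overlap.

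Among the other pairs, Rpl7l1, a homologue of Rpl7 found on ribosome precursors, had 19.5, 16.8 and 19.6 CPM in Input against 34.7, 34.6 and 39.1 CPM in IP. It was higher in IP (log2 fold change 0.95, adjusted p = 0.00044, edgeR), while Rpl7 was not called (0.20, adjusted p = 0.321), and the log2 ratio was 0.77 higher in IP. For Rpl36al over Rpl36a the log2 ratio was 0.58 higher in IP without overlap, although neither gene was called. The groups nearly touched, at 72.96% in IP replicate 2 against 72.62% in Input replicate 3, while IP replicate 1 reached 154.6%. Leaving out 1 library took this difference as low as 0.27. Rpl22l1 over Rpl22 gave 0.27, with overlapping groups. In that pair only IP replicate 1, with 70.6% against 25.4 and 30.04% in the other IP libraries and 27.9 to 34.1% in Input, stood apart, and without it the difference was -0.18. An exact two-sided permutation test gave p = 0.1 for each of the 4 pairs without overlap, the smallest that 3 against 3 libraries allow, and 0.9 for Rpl22l1. Adjusted over the 5 pairs by Benjamini-Hochberg these were 0.125 and 0.9, so no pair could pass 0.05 in this design.

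The 3 remaining pairs had paralogues close to or at zero. Rpl10l, a retrocopy of Rpl10 used in the male germ line, had 0 counts in every library, which allows up to 3 counts in each. Rpl39l, a germ cell form of Rpl39, had 0, 9 and 22 counts in Input against 0, 7 and 0 in IP. Rpl3l, the striated muscle form of Rpl3, had 2, 8 and 14 counts in Input against 2, 0 and 0 in IP. These 3 genes were too low to test, and their values are at most 0.421 CPM in any library. Of their main copies, Rpl39 was higher in IP, Rpl3 had a log2 fold change of -0.26 (adjusted p = 0.125, edgeR) and Rpl10 of -0.15 (adjusted p = 0.855). Rpl3 was called lower with library totals (-0.50, adjusted p = 0.0208), upper-quartile scaling (-0.44, 0.0194) and the stricter filter (-0.35, 0.0459).

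Counts of members differed over a wide range although most of their proteins share a single copy per ribosome. Per kilobase of exon, the mean Input level of the 77 tested members ran from 0.469 to 279 CPM. In 12 of the 80, no library reached 100 counts, and 30 had means under 10 CPM in both groups. To set this beside the sequences, every 50-base window of each member's transcripts was looked up in the transcripts of genes elsewhere in the annotation. At least 1 coding window was shared with another gene in 77 of the 80 members, with Rpl3l and Rpl39l among the exceptions, and every coding window was shared in 28. In those 28 the median Input level was 4.38 CPM per kilobase, and in the other 49 tested members it was 25.8. In IP these medians were 4.40 and 32.1 CPM per kilobase. Across the 77 tested members, the Spearman correlation of the level per kilobase with the share of coding windows found elsewhere was -0.72, and over all exon windows it was -0.38. These points share their libraries and the annotation, so the correlations are descriptions.

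**Figure D4:**
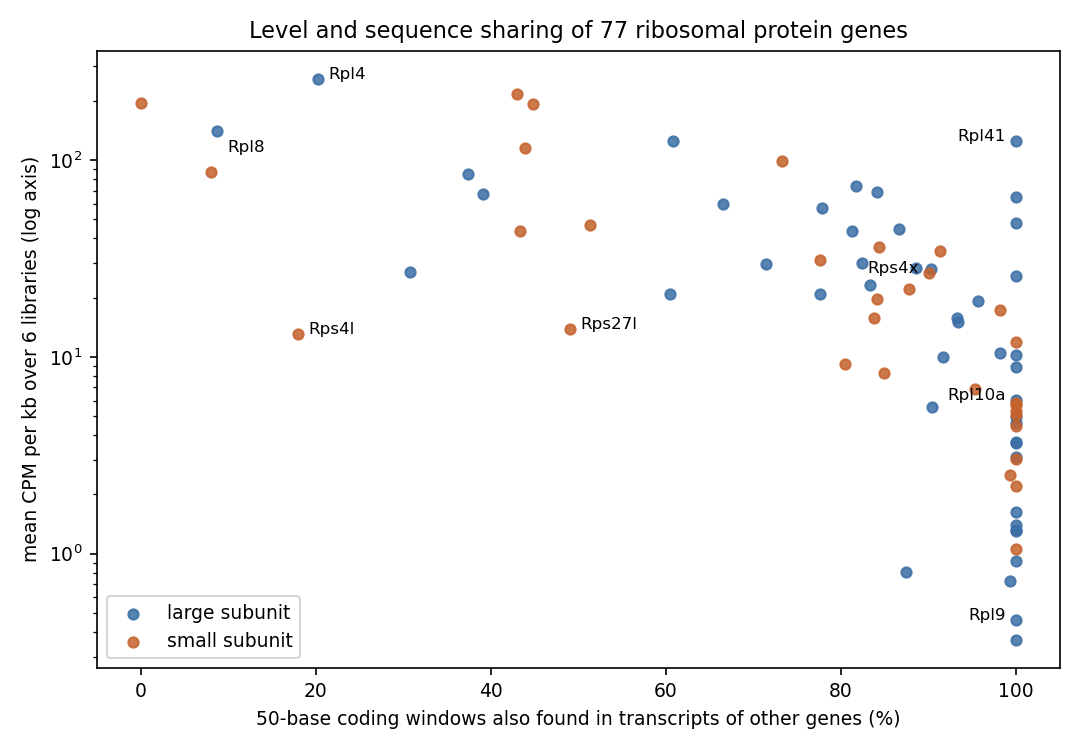
Mean CPM per kilobase of exon over the 6 libraries (vertical log axis) against the percent of 50-base coding windows that also occur in transcripts of other genes (horizontal axis), for the 77 tested members. Some members with few shared windows, such as Rpl4 and Rpl8, lie near the top, but Rps4l (17.97%) lies lower. Those at 100% spread from Rpl41, followed by Rpl38 and Rpl27a, down to the lowest levels.

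The Spearman correlation of the log2 fold change with the share of exon windows found elsewhere was -0.11. Of the 15 higher members, 4 had every coding window shared, and of the 3 lower members 1 did, Rpl9. The 28 fully shared members had a median log2 fold change of 0.18 (4 higher, 1 lower) and the other 49 of 0.23 (11 higher, 2 lower). Over all genes tested, 23.3% were higher and 24.3% lower. Rows for 6 ribosomal protein pseudogenes outside the member list held 2552 counts in all, between 0.243 and 0.451% of the member counts of a library. Overlapping gene models are a further limit: 36 members have exon bases under exons of another gene, in 11 of them at least 20% of the bases. Of the 18 called members, 5 have such overlaps (Rpl35, Rpl32, Rps2, Rpl4 and Rplp2), and apart from Rpl35 they cover at most 20.04% of the exon bases.

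Called genes were spread unevenly over coding length. Of 25 members with at most 400 coding bases, 10 were higher and none lower, with a median log2 fold change of 0.33. Of 31 with 400 to 600 coding bases, 3 were higher and 1 lower (median 0.30). Of 21 longer ones, 2 were higher and 2 lower (median 0.10). The Spearman correlation of log2 fold change with coding length was -0.43 over all 77, -0.49 in the large and -0.33 in the small subunit. Over all genes, length was taken as exon bases, which include untranslated sequence, so the classes differ from those of coding length. Among 566 protein-coding genes with at most 1000 exon bases, 45.2% were called higher, with a median of 0.64. The 40 members in that range had 11 higher and 1 lower, with a median of 0.32. Of 2520 genes with 1000 to 2000 exon bases 35.3% were higher (median 0.28), and of the 29 members in that range 4 were higher and 1 lower (median 0.17). Among all genes 13.4 and 14.4% were lower in these 2 ranges. The 7 members with 2000 to 4000 exon bases had a median of 0.24, against 0.03 over all genes, and the 1 longer member had -0.09, against -0.11. The members' median thus lay below that of all protein-coding genes in the 2 shorter ranges and above it in the 2 longer ones, which hold few members. These differences were not tested.

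**Figure D5:**
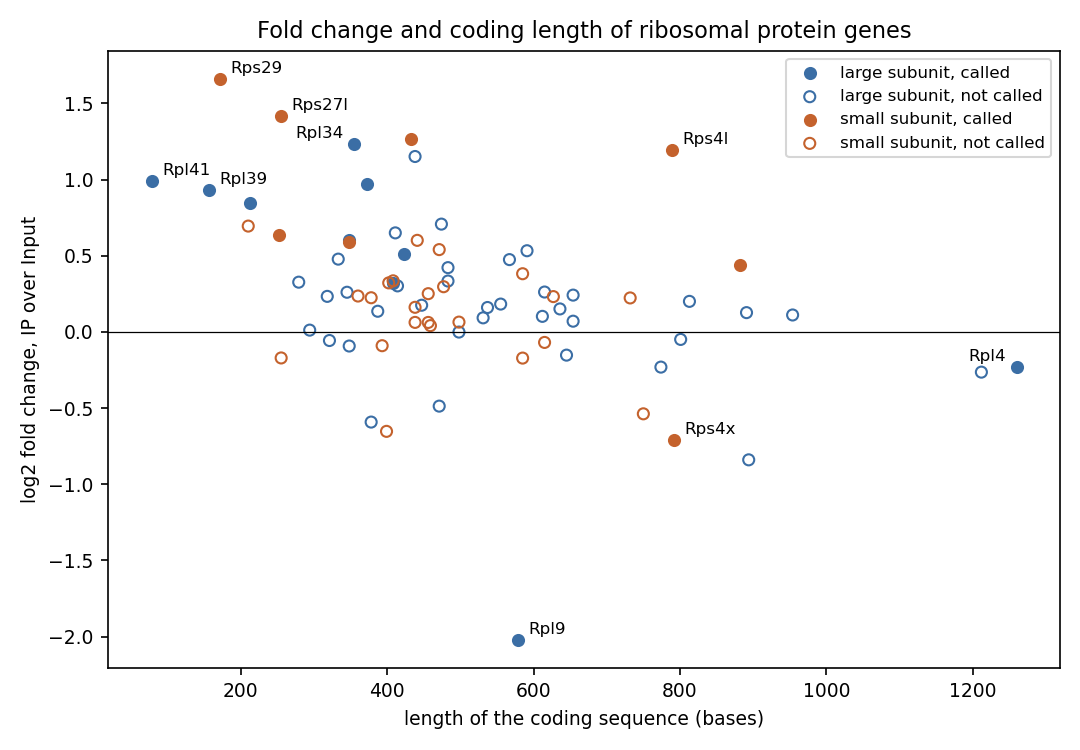
Log2 fold change of IP over Input (vertical axis, TMM scaling) against the length of the coding sequence in bases (horizontal axis) for the 77 tested members, with filled symbols for called genes and colours for the subunits. Called genes with positive values have at most 432 coding bases (Rps23), apart from Rps4l and Rps2, and Rpl4 and Rps4x lie among the longer genes.

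Members with and without a TOP-like run are set side by side. Among all genes tested, 23.3% were higher and 24.3% lower. The 34 tested members with a run of at least 8 C or T near the start had a median log2 fold change of 0.23, with 8 higher and 1 lower. The 22 without such a run had a median of 0.16, with 4 higher and 2 lower, and the 21 without a promoter entry one of 0.24, with 3 higher. The called genes shown above include both kinds: Rpl34, Rpl35, Rpl38, Rplp2, Rps26 and Rpl4 with a run, and Rpl41, Rpl9 and Rps4x without. The Spearman correlation between the longest run and the log2 fold change was -0.05 over 56 members.

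Genes that act with the ribosomal proteins were taken from lists. Of the 8 further ribosomal protein genes and paralogues in the files, 3 were higher and 1 lower (37.5 and 12.5%, against 23.3 and 24.3% of all genes). Fau, made as a fusion of a ubiquitin-like protein with a small subunit protein, had 3.05, 3.12 and 3.65 CPM in Input against 6.30, 7.28 and 5.86 CPM in IP. Its groups did not overlap (log2 fold change 0.98, edgeR's adjusted p = 0.0164). The call was lost without Input replicate 1 (adjusted p = 0.0598) or 2 (0.0641). Rpl7l1 was higher as well. Rps3a1 was lower, with 56.7, 52.0 and 50.1 CPM in Input against 32.3, 44.3 and 42.0 CPM in IP (log2 fold change -0.42, adjusted p = 0.0323). It was not called when Input replicate 1 (0.126), 2 (0.09) or 3 (0.0706) was left out. Rpsa, which encodes the small subunit protein also known as the laminin receptor, had 4.23, 4.02 and 4.38 CPM in Input against 5.14, 3.03 and 3.58 CPM in IP. Its groups overlapped, and it did not pass the test (log2 fold change -0.10, adjusted p = 0.818).

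Of 38 ribosome biogenesis factors, 12 were higher and 1 lower (31.6 and 2.63%), with a median log2 fold change of 0.26. Among all genes 23.3% were higher and 24.3% lower. Nop10 (1.60) and Nhp2 (1.18), both proteins of the H/ACA particles that modify ribosomal RNA, were the most raised, and nucleolin (Ncl) was lower (-0.60). Of 24 TOP mRNAs that encode no ribosomal protein, 3 were higher and 4 lower (12.5 and 16.7%), with a median of -0.13. Eif3e (0.76) and Eif3k (0.72), subunits of an initiation factor, were higher. Pabpc1, which binds poly(A) tails, was lower (-0.84), as was the intermediate filament gene Vim (-3.21), which is also made by glial and vascular cells. Of 26 regulators of ribosomal protein mRNAs and ribosomes, 9 were higher and 3 lower (34.6 and 11.5%), with a median of 0.09. Cnbp, which binds TOP mRNAs, was higher (0.82), as was Rrp7a (1.46), and Tia1, a repressor of TOP mRNAs under stress, was lower (-1.87), as was the nuclear import receptor Tnpo1 (-1.11).

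Mitochondrial ribosomal proteins, made from nuclear genes and used in another ribosome, gave other counts. Of 76 tested, 66 (86.8%) were higher in IP and none lower, against 23.3 and 24.3% of all genes. Their median log2 fold change was 0.80. Mrps33 had 8.26, 9.09 and 8.76 CPM in Input against 29.4, 21.1 and 25.5 CPM in IP, a log2 fold change of 1.54. Mrpl52 had 26.8, 25.4 and 25.4 CPM in Input against 93.0, 61.1 and 67.8 CPM in IP (1.52). Summed over each list, mitochondrial ribosomal proteins went from 1927 to 1988 CPM in Input to 3377 to 3584 in IP, and cytosolic members from 2686 to 2995 to 3008 to 3277. Both sums hold uniquely aligned reads only. At least 1 coding window was shared with another gene in 77 of the 80 cytosolic members, and sharing was not computed for the mitochondrial list. The sums therefore do not rank the mRNA amounts of the 2 lists. The difference between the lists was not tested.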

How the data were processed

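The deposited values were raw counts of reads, in whole numbers, with 1 file for each of 6 libraries. STAR 2.0.0e, HTSeq and the build mm10 are named per the submitters' processing notes. The strand setting, annotation and version of HTSeq are not given in the sources used here. Lines tied to no gene (6 per library) were left out. Besides the not uniquely aligned reads these held reads outside features (8.44 to 9.39% of all lines in IP, 14.7 to 15.9% in Input) and reads over several features (1.32 to 1.58% and 5.47 to 6.60%). The sample-type label gave the group and the title the replicate number. Each number also marks a sequencing lane.

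IP was set against Input with edgeR 4.0.16 in R 4.3.3 (filterByExpr with minimum count 10, TMM, robust quasi-likelihood F-test, Benjamini-Hochberg over all genes tested, threshold 0.05). The procedure was tested on simulated data with the same dispersion for every gene and both groups, and with changes in well-counted genes only. The real IP replicates differed more from each other than the Input replicates. The simulation therefore does not show how the test performs with unequal spread or at low counts. DESeq2 1.42.0, other scalings and filters, a replicate block and leaving out each library were alternatives. Paralogue ratios used scipy 1.17.1. No genome sequence was used, so windows were searched in GENCODE M21 transcripts instead of the genome, for genes that do not overlap the member. The search for windows of the coding sequence only was added after seeing the data. Rps4l has no annotated coding sequence, and its longest open reading frame was used.

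The members, lists and pairs were chosen with earlier results of these data known. Genes were named by rule: Rpl10a, Cbln1, both genes of each pair, per subunit up to 6 called genes in each direction and the 3 highest per kilobase, genes that were not tested, and per other list the 2 called genes of largest change in each direction with a mean of at least 5 CPM. Some genes that the rule names are not reported here. Same-numbered libraries deviated together only weakly (correlations of 0.0636, 0.0386 and 0.0124), so the numbers were not used to pair them in the main test. Weak correlations do not show that the libraries were unpaired.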

Additional observations from a re-analysis of the deposited data

How the results depend on the processing

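Of the 15 higher members, 9 kept their call in all 12 alternatives of the gene tests (Rpl34, Rpl35, Rpl38, Rpl39, Rpl41, Rplp2, Rps26, Rps27l and Rps4l), and of the 3 lower ones only Rps4x was. No called member changed sign where it was tested. Without filter on low counts, 1 large subunit gene was lower. Upper-quartile scaling gave 5 lower members, 4 of them large, and 4 higher small subunit genes. Library totals gave 7 lower members (4 large, 3 small), 4 higher small subunit genes and 2464 higher among all genes, and turned the medians to -0.0036 for all members, -0.042 for the large and -0.0013 for the small subunit. The calls of Rpl32, Rps2, Rps21 and Rps23 were lost with both scalings and those of Rpl23 and Fau with library totals. Rpl4 and Rps23 were not called without the filter, nor Rpl32 and Rps2 with a stricter one, under which Rps23 and Rpl9 were not tested. The stricter filter (minimum count 100) turned the median of all genes to 0.0082. Leaving out 1 library gave 10 to 19 higher and 1 to 4 lower members, 7 to 12 and 0 to 2 in the large and 3 to 9 and 1 to 2 in the small subunit, 3113 to 4392 higher and 3017 to 5066 lower among all genes, and summed shares of 0.935 to 0.975 times Input. That sum was 1.013 times Input without Rn45s in the totals and 0.991 without Rpl4. The paralogue differences ranged from 1.60 to 2.15 (Rps4l), 1.25 to 1.95 (Rps27l), 0.59 to 0.92 (Rpl7l1), 0.27 to 0.81 (Rpl36al) and -0.18 to 0.56 (Rpl22l1), the lowest of the last without IP replicate 1. The cause of these changes was not tested. The replicate block, in which each number also stands for a lane, gave 14 higher and 2 lower members, with 1 lower large subunit gene. With it, Rps23, Rps29 and Rpl9 were no longer called (edgeR's adjusted p = 0.13, 0.0669 and 0.0681). Beyond number and lane, the labels do not say whether an IP and an Input library belong together. IP replicate 3 correlated best with Input replicate 2, so not every library matched its own number. In the blocked sign permutation of the paralogue ratios, p could not go below 0.25, which 4 pairs reached. Windows of 36 and 75 bases gave correlations of -0.30 and -0.49 between level and sharing. In 12 members no library reached 100 counts. Replicates differed by far more than counting noise, so how much depth limits these members was not tested.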
